A study of Mus musculus with 9 samples.

Results

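The comparison described here set the tibialis anterior muscle of mice given dexamethasone (DEX), a synthetic glucocorticoid, against that of control mice given saline. It used the 6 arrays, of 9 in the series, that are labelled dexamethasone (3 arrays) or normal control (3 arrays), and every probe set that reached a signal of 50 in the mean of at least 1 group. All mice were C57BL/6J males, 15 weeks old when the diets began, individually housed and fed a purified diet. The DEX group received 5 mg/kg DEX by intraperitoneal injection every day for 7 d and the control group received saline on the same days. The other 3 arrays, of mice given the same DEX injections and a diet with 2% turmeric extract (DEX + TE), entered the estimate of the spread between mice and the floor on signal, but not the comparison. Of the called probe sets, 5 reached the floor of 50 in the DEX + TE mean alone, those of Bcl2 and Ralgapa1 and 3 without a single gene name. The sample labels describe the turmeric as given after DEX, whereas the methods state that the diet began 5 d before the first injection. The methods state that the mice chosen for the arrays had body and muscle weights near the average of their group, so the spread between arrays may be smaller than among all mice of a group. Each mouse gave 1 array, made from 250 ng of RNA.

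Glucocorticoids enter the cell and bind the glucocorticoid receptor, a transcription factor kept in the cytosol by heat shock proteins and their co-chaperones. The bound receptor moves to the nucleus, where it turns some genes on by binding DNA directly and holds others down, many of them inflammatory genes, by acting on other transcription factors. In skeletal muscle a lasting glucocorticoid excess is known for the loss of fast fibers, for more protein breakdown and less protein synthesis, and for less collagen in the matrix around the fibers. The collagens, the genes of oxidative phosphorylation and the genes that the study tabulated are left aside below.

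Of the 45101 probe sets on the array, 64 are controls of the manufacturer and 29269 reached the floor of 50 and were tested. These include 1 probe set for each of 13691 genes. The trimmed mean of each array was 500, and the arrays correlated with each other at 0.933 to 0.956 on the log2 scale. Control replicate 1 correlated at 0.9455 and 0.9430 with control replicates 2 and 3, which correlated with each other at 0.9555. Its correlation with every other array was at most 0.9455. The median signal of an array was 76.0 to 86.2 on control arrays and 71.3 to 77.7 on DEX arrays. Signals of 50 or more were reached by 60.9 ± 1.76% (SD, n = 3) of probe sets in control and 59.2 ± 0.742% in DEX arrays. RNA quality, read as the 3′ over 5′ log2 ratio of the actin control probe sets, was 0.29 ± 0.04 in control and 0.30 ± 0.17 in DEX arrays. The markers of fast skeletal muscle, among them Ckm, Acta1, Myh4 and Mylpf, were among the brightest genes on all 6 arrays, with a summed signal over 12 genes of 649304 to 905953 on control arrays and 509365 to 640345 on DEX arrays, so the tissue matched its label. The muscle is a mixture of cell types, and in such bulk RNA fewer cells of a type and less RNA per cell cannot be told apart. Precision is limited by the number of arrays, and an exact two-sided permutation test of 3 against 3 arrays cannot give a p below 0.1.

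The receptor binds a palindrome of 2 half-sites. The letters GNACA, then 3 bases of any kind, then TGTNC (N is any base) were searched on both strands of the 250 bases before and 50 bases after each RefSeq transcription start of the mouse genome GRCm38.p6, for the genes called below. At least 1 match was present in 145 of all 27025 genes with such a window (0.537%), in 1 of the 39 genes called higher that had one (2.56%) and in 3 of the 44 called lower (6.82%). The shorter half-site AGAACA, which overlaps the palindrome in some genes, was present in 21.3% of all genes, 15.4% of those called higher and 20.5% of those called lower. A match describes the letters of the window and is not evidence of binding. The 4 genes with the palindrome are shown because they are the only called genes, outside those left aside, in whose windows those letters occur: Car14, which was higher on DEX arrays, and Fam107a, Kcna5 and Sgk1, which were lower. Each line holds the 250 bases before a start, written 5′ to 3′ along the gene with the match in capitals. The regions are chr3:95904686-95904935 (minus strand, match 225 bases before the start) for Car14, chr14:8309778-8310027 (minus strand, 120 bases before) for Fam107a, chr6:126535556-126535805 (minus strand, 59 bases before) for Kcna5, and chr10:21993640-21993889 (plus strand, 188 bases before) for Sgk1. For Sgk1 this was 1 of 6 annotated starts, and the other 5 windows held no match.
Car14: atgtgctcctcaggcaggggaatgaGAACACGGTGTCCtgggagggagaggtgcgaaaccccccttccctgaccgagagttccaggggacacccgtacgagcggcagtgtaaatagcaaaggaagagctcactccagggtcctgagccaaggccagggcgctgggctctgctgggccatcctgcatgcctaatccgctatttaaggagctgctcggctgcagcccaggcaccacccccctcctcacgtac
Fam107a: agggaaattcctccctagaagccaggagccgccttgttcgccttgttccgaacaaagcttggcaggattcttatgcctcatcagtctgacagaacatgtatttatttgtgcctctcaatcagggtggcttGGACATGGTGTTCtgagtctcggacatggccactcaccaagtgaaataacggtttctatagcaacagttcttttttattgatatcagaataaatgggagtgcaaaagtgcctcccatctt
Kcna5: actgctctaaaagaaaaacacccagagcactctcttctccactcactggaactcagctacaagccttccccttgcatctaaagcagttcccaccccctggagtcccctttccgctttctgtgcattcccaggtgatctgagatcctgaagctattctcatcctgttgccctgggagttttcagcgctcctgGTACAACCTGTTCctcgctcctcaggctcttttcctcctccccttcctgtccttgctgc
Sgk1: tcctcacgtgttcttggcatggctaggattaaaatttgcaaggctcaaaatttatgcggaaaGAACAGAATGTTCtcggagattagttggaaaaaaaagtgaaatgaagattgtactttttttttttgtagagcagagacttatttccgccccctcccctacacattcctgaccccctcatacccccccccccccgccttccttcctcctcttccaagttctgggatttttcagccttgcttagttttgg

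A probe set was called when limma gave a Benjamini-Hochberg adjusted p under 0.05 over all 29269 probe sets and an absolute log2 fold change, DEX over control, of at least 0.6. DEX raised 68 probe sets (0.232% of those tested) and lowered 79 (0.27%). With the arrays centred on their medians the counts were 65 and 45, so that the share of higher calls went from 46.3% to 59.1%. The median over all probe sets tested moved from −0.03 to 0.08 on the log2 scale with that centring. The 68 higher probe sets hold 53 named genes and the 79 lower ones 60, of which 50 and 52 lie outside the genes left aside. Where both groups reached 50 on at least 1 array, the median fold of the called probe sets was 2.89 for the higher and 2.38 for the lower. The 3 control and 3 DEX signals did not overlap for any of the 147 called probe sets, and this was also so for 2655 (9.07%) of all probe sets above and 3537 (12.1%) below the control. At an unadjusted p under 0.05 (nominal p below) there were 1785 (6.1%) higher and 2439 (8.33%) lower, so most differences of that size did not pass the adjustment.

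**Figure D1:**
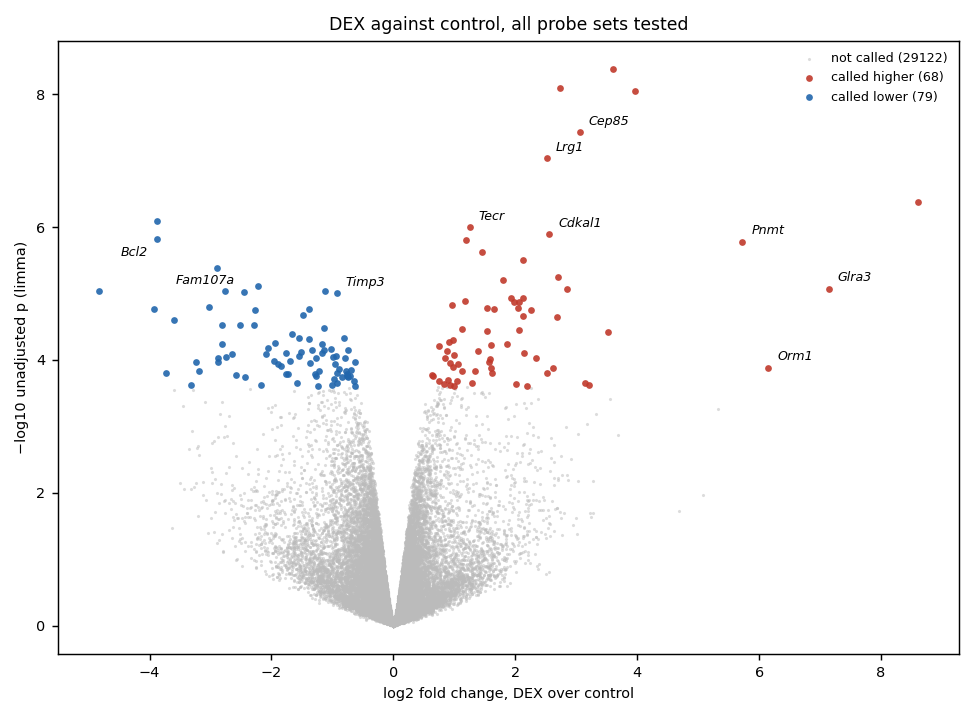
Log2 fold change (DEX over control) of the 29269 probe sets tested against −log10 of the unadjusted limma p, with the 68 called higher in red and the 79 called lower in blue. The called probe sets lie in both directions, and those with the lowest p, among them Cep85 and Lrg1, are higher.

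The counts varied with single arrays. Without control replicate 1, 2 or 3 limma called 43, 38 and 38 probe sets higher and 30, 16 and 14 lower. Without DEX replicate 1, 2 or 3 it called 35, 32 and 45 higher and 49, 35 and 51 lower. Without DEX + TE replicate 1, 2 or 3, which are not in the comparison itself, it called 32, 31 and 40 higher and 18, 25 and 30 lower. Of the 147 calls, 28 were kept in all 9 of these refits (19 higher and 9 lower), and 10 of the 28 were also kept when only the 6 arrays compared were fitted, which called 11 higher and 7 lower in all. The refits and the fit to 6 arrays kept the probe sets that the floor had selected with all 9 arrays. They therefore do not show how the calls depend on the floor. Of the 147 calls, 130 were kept with quantile normalization, 102 with arrays centred on their medians and 45 with no filter on low signal, and the sign of the log2 fold change changed for none of them in these fits. The fit to 6 arrays ended the calls of all genes named below except Cep85, Apoh, Art1, Cdkal1, Lrg1, Noct and 1 probe set of Pnmt, and this is not repeated at each gene. Quantile normalization ended those of Sgk1, Aldh1a1, Mndal, Mylk4, Esrrg, Plp2, Phf7, Ttll7, Nhsl1, Hoxd8, Ablim3, Gemin8, Sox3, Fgf3, Ralgapa1 and 1 probe set of Tmem38b. Each gene below is given with the refits without 1 array that ended its call, "kept in all 9" meaning that none did. Of the named genes kept in all 9, Timp3 and Dtna lost their calls with no filter on low signal, and Ddhd2, Bcl2 and H1f7 with a mean-variance trend. Taking the replicate number as a block ended the calls of Timp3, Dtna, Ptprf, Prkag3, Tmem200c and the Fkbp5 probe set kept in all 9. The genes are ordered by what they are known to do, a grouping made after their values were seen and not tested. Signals are in the order of replicates 1, 2 and 3, and a value given to a gene or in parentheses after its signals without a further name is its log2 fold change, DEX over control.

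Fkbp5 encodes a co-chaperone that lowers the hormone affinity of the glucocorticoid receptor and is a standard target of it. The signal of its first probe set was 568, 496 and 768 on the control arrays and 2714, 2188 and 1990.4 on the DEX arrays. All 3 DEX arrays stood above all 3 controls, and the log2 fold change was 1.92 (SE 0.19, limma adjusted p 0.0128), kept in all 9. The other, brighter probe set rose by 2.26 and lost its call without control replicate 2 or 3, with a highest adjusted p of 0.0528. Lrg1, a secreted leucine-rich glycoprotein made in acute-phase and endothelial responses, had signals of 923, 752 and 911 on control and 5518, 4694 and 4533 on DEX arrays. Its log2 fold change was 2.51 (SE 0.13). The limma adjusted p of 5.30e-04 was among the lowest of the comparison, and the call was kept in all 9 and in the fit to 6 arrays. Pim1, a serine/threonine kinase induced by cytokines, went from 257, 260.4 and 194 to 757, 1187 and 1205 (log2 fold change 2.13) and by 1.98 on a second, brighter probe set. Its calls were lost without control replicate 2 or 3, and for the dimmer probe set also without DEX replicate 2, with adjusted p up to 0.0586.

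Some called genes have known roles in lipid or small-molecule metabolism, although the lists of lipid synthesis and of fatty acid uptake and oxidation described below held no call. Plin5 coats lipid droplets next to mitochondria in oxidative tissues. Its signal was 941, 879.7 and 822 on control arrays and 2732, 2277 and 2259.6 on DEX arrays, a log2 fold change of 1.46 (SE 0.11, limma adjusted p 0.00541). That call was kept in all 9, whereas the second probe set (1.35) lost its call in each of the 9 refits. Tecr, the reductase of the last step of very-long-chain fatty acid elongation, was bright in both groups. On its dimmer probe set the signal was 3985, 3678 and 3832 on the control arrays and 9478, 8969.6 and 8905 on the DEX arrays. The arrays of a group differed by little, and both Tecr probe sets, with log2 fold changes of 1.25 (SE 0.09) and 1.19 (SE 0.09) and limma adjusted p of 0.0037 and 0.00403, were kept in all 9. Apoh, a plasma phospholipid-binding protein best known from liver, went from 44.7, 36.9 and 53.9, near the floor of 50, to 329.9, 239 and 295 (log2 fold change 2.68), and a second probe set had −0.19. Only 1 of its 3 control arrays reached 50, so the size of that change is uncertain. Apod, a lipocalin that carries lipids, went from 1921, 1917 and 2122 to 4786, 3824 and 4366 (1.12).

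Aldh1a1, which makes retinoic acid, had a log2 fold change of 1.04, and Nnt, the gene of the mitochondrial transhydrogenase, of 1.06 and 0.93 on its called probe sets. The arrays measured RNA, and whether the Nnt transcript of these C57BL/6J mice gives a working enzyme was not tested. Cdo1, the dioxygenase that starts the breakdown of cysteine, rose from 69.4, 71.3 and 72.7 to 282, 190.0 and 186 (1.60). Car14, a membrane carbonic anhydrase whose upstream sequence is shown above, rose from 967, 654 and 669 to 2802, 2290.0 and 1765 (1.58). The limma adjusted p was 0.0157 for Apoh, 0.0209 for Apod, 0.0459 for Aldh1a1, 0.0341 and 0.0341 for Nnt, 0.0277 for Cdo1 and 0.0329 for Car14. These calls were less stable. Apoh lost its call without DEX replicate 1 or 3 or control replicate 1 or 2, Apod, Cdo1 and Car14 in 6 or 7 of the 9 refits, and Aldh1a1 and 1 Nnt probe set in all 9, with a highest adjusted p of 0.0626, 0.0788, 0.0967, 0.111, 0.133 and 0.109 in that order. The second Nnt probe set was lost in 8 of the 9 refits (up to 0.102) and with median centring, and Aldh1a1 also with quantile normalization.

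Other genes that rose encode cell surface, junction or channel proteins. Ptprf, a receptor tyrosine phosphatase of cell adhesion sites, had signals of 195, 145 and 146 on control and 532, 593 and 543 on DEX arrays, a log2 fold change of 1.79 (SE 0.16, limma adjusted p 0.0107) that was kept in all 9. Its other probe sets had 1.52 and 3.68 and were not called. Dtna encodes dystrobrevin, a member of the dystrophin complex under the muscle membrane. It rose from 1081, 1216 and 1227 to 2354, 2169.8 and 2356 (0.97, adjusted p 0.0134, kept in all 9), and its remaining 5 probe sets had values between 0.57 and 0.94, with 1 of them called, which all 9 refits and median centring ended (up to 0.105). Tmem37, a protein of the calcium channel gamma subunit family, rose from 1109.6, 935 and 1401 to 4123, 3406 and 3217 (1.65, adjusted p 0.0134) and lost its call without control replicate 1 alone (0.051).

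Cldn5, the claudin of endothelial tight junctions, rose from 324, 287 and 441 to 931, 1303 and 871 (1.56), Scn3b, an auxiliary subunit of voltage-gated sodium channels, from 112, 52.1 and 80.8 to 521, 402 and 296 (2.35), and Jup, or plakoglobin, by 0.75. Tmem38b, a cation channel of the endoplasmic and sarcoplasmic reticulum, rose by 1.00 and 0.99 on its called probe sets, and Amotl1, an angiomotin family protein of cell junctions, by 0.97. Limma gave adjusted p of 0.0341 for Cldn5, 0.0324 for Scn3b, 0.029 for Jup, 0.049 and 0.0317 for Tmem38b and 0.0374 for Amotl1. Each of the calls of these 5 genes was lost in 7 to 9 of the 9 refits, with adjusted p up to 0.109, 0.107, 0.102, 0.141 and 0.122. Median centring also ended the calls of Amotl1 and of 1 Tmem38b probe set.

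Of the secreted proteins and their receptors, Thbs1, or thrombospondin 1, which activates latent TGF-β and inhibits vessel growth, rose from 107, 129.5 and 109 to 386, 606 and 468 (log2 fold change 2.06, SE 0.21, limma adjusted p 0.0133). Its call was lost without control replicate 3 alone (adjusted p 0.0524), and its other probe set had 1.35. Agt, or angiotensinogen, rose from 246, 238 and 188 to 445, 579 and 438 (1.12), and Tnfrsf12a, the receptor of the cytokine TWEAK, from 852, 878 and 776 to 2159, 2634 and 1810.2 (1.38). Traf3ip2, the adapter of the interleukin 17 receptor, rose from 179, 187 and 190.1 to 662, 536 and 442 (1.54). Adjusted p from limma was 0.0397 for Agt, 0.0307 for Tnfrsf12a and 0.0134 for Traf3ip2. Agt lost its call in all 9 refits and with median centring, Tnfrsf12a in 8 and Traf3ip2 without DEX replicate 2 or any 1 control array, with adjusted p up to 0.109, 0.0985 and 0.0552.

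Some genes for regulators of transcription or RNA rose. Zfp423, a zinc finger factor of BMP signaling and fat cell commitment, rose from 262, 312 and 262 to 675, 609.6 and 597 (1.17, limma adjusted p 0.0133) and lost its call without control replicate 3 alone (0.0524). Tgif1, a homeodomain repressor of TGF-β signaling, rose from 120.0, 108 and 113 to 273, 430.3 and 302 (1.53, adjusted p 0.0216) and lost its call in 6 of the 9 refits (up to 0.0843). Cdkal1 modifies a lysine tRNA needed for accurate translation. On 1 probe set it had signals of 1034, 839 and 841 on control arrays and 4843, 6124 and 5000.1 on DEX arrays, a log2 fold change of 2.56 (SE 0.18, adjusted p 0.00403), and the call was kept in all 9 and in the fit to 6 arrays. Its other probe set had 0.40 and was not called, so the probe sets of this gene disagreed in size. Nsun2, a tRNA methyltransferase, rose by 0.84 (adjusted p 0.0324, lost in all 9 refits, up to 0.109). The lowest adjusted p of the whole comparison, 8.89e-05, belonged to probe sets with no single gene name. The brighter of those with the largest folds rose from 557, 481 and 555 to 7109, 6345 and 5977 (3.61), and a second one rose by 3.96.

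**Figure D2:**
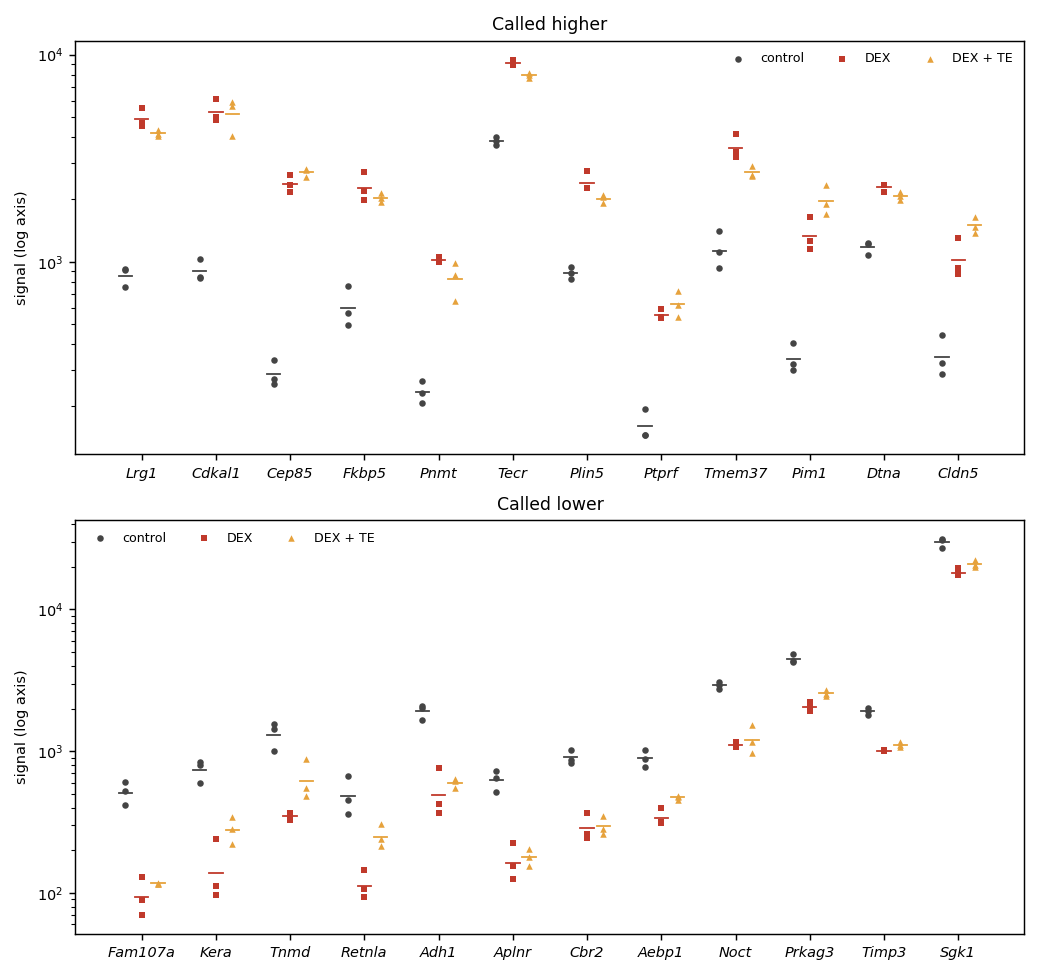
Signals of 12 genes called higher (top) and 12 called lower (bottom), on a logarithmic axis, with 1 point per array and a bar at the geometric mean of the 3 control (grey circles), DEX (red squares) or DEX + TE (orange triangles) arrays. For each gene the 3 DEX points lie apart from the 3 control points, for Fkbp5 at 2714, 2188 and 1990.4 against 568, 496 and 768.

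Of the genes that fell, some are known from tendon and matrix. Tnmd, or tenomodulin, and Kera, or keratocan, mark tendon cells and the connective tissue at the ends of a muscle. Tnmd had signals of 995, 1424 and 1562 on the control arrays and 358, 326 and 368 on the DEX arrays, and Kera 597, 832 and 801 on control and 96.0, 112 and 239 on DEX arrays. The highest DEX array was below the lowest control array for both genes, with log2 fold changes of −1.90 (SE 0.26, limma adjusted p 0.0341) and −2.43 (SE 0.35, adjusted p 0.042). Aebp1, a secreted collagen-binding protein of fibroblasts, fell on 2 probe sets, with log2 fold changes of −1.39 (adjusted p 0.0134) and −1.14 (adjusted p 0.0204), and had 0.11 on its remaining probe set. Timp3, an inhibitor of matrix metalloproteinases, went from 1936, 1804 and 2001 to 1013, 1000.2 and 996 (−0.93, adjusted p 0.0116). Its remaining 3 probe sets had values between −0.71 and −0.60 and were not called.

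Pcolce, the enhancer of procollagen C-proteinase, went from 1694, 2391 and 2426 to 762, 949.9 and 1035 (−1.24, limma adjusted p 0.049), and Adh1, an alcohol dehydrogenase that is abundant in fibroblasts and fat, from 1656, 2086 and 2025 to 761, 424 and 366 (−1.96, adjusted p 0.0341). Ddr1, a receptor tyrosine kinase for collagen, had −1.51 (adjusted p 0.031), with DEX signals of 41.1, 59.2 and 52.1, near the floor of 50. The other 7 probe sets of Ddr1 ranged from −1.01 to 1.43 and were not called. Of these tendon and matrix genes, only Timp3 kept its call in all 9 refits. Aebp1 lost the call of the more changed probe set without control replicate 2 alone (0.0552) and that of the other in 5 of the 9 (up to 0.0727), and Tnmd, Kera, Pcolce, Adh1 and Ddr1 were lost in 8 of the 9, Adh1 also with median-centred arrays, with adjusted p up to 0.12, 0.137, 0.145, 0.116 and 0.104.

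Some immune genes fell. H2-Aa, an antigen-presenting molecule of class II, had signals of 733, 1523 and 1338 on control and 94.9, 203 and 198 on DEX arrays (−2.87, limma adjusted p 0.0324). Retnla, a secreted product of alternatively activated macrophages and fat, fell from 454, 672 and 362 to 144, 106 and 93.1 (−2.10, SE 0.27, adjusted p 0.0311). Mndal, an interferon-inducible nuclear protein, fell from 433, 486 and 495 to 199, 122 and 118 (−1.73, adjusted p 0.0409). Fcgr2b, the inhibitory receptor for IgG, fell from 169, 166 and 163 to 84.9, 60.4 and 79.2 (−1.16, adjusted p 0.031), and its other probe sets had −1.12 to −0.09. Each DEX array was below each control array for all 4 genes.

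Among cytokines, Il18, which activates lymphocytes, fell from 119.8, 191 and 164 to 50.7, 60.4 and 48.4 (−1.55, limma adjusted p 0.0254), and Il15, a myokine that sustains lymphocytes, from 585, 638 and 564 to 318, 353 and 362 (−0.79, adjusted p 0.0324). Colec11, a lectin that starts complement activation, had −1.76 (adjusted p 0.0409). Only 1 of its 3 DEX arrays reached 50, so the size of that change is uncertain. Cbr2, a carbonyl reductase often found in resident macrophages, had −1.66 (adjusted p 0.0231). Each of the immune and cytokine calls was lost in 6 to 9 of the 9 refits, with adjusted p up to 0.109 for H2-Aa, 0.105 for Retnla, 0.133 for Mndal, 0.104 for Fcgr2b, 0.0873 for Il18, 0.109 for Il15, 0.124 for Colec11 and 0.074 for Cbr2. Mndal, Fcgr2b and Il15 also lost their calls when the arrays were centred on their medians.

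Some genes that fell are known from blood vessels. Aplnr, the apelin receptor of endothelial cells, fell from 646, 517 and 724 to 154, 125 and 224 (−1.93, SE 0.24, limma adjusted p 0.0277), and its other probe set had −1.53. Gpihbp1, which carries lipoprotein lipase across the capillary wall, fell from 2188, 2173 and 2302 to 1046, 1308 and 1156 (−0.93, adjusted p 0.0409). Aqp1, the water channel of capillary endothelium, had −0.63 (adjusted p 0.0341), and Kcna5, a potassium channel of muscle and vessels whose upstream sequence is shown above, fell from 1469, 1473 and 1312 to 753, 557 and 592 (−1.17, adjusted p 0.0277). Aplnr lost its call in 8 of the 9 refits (up to 0.0882), Kcna5 in 7 (up to 0.0969), and Gpihbp1 and Aqp1 in all 9 (up to 0.126 and 0.121). The latter 3 also lost theirs with median-centred arrays.

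Further genes that fell are known from the muscle fiber or its metabolism. Prkag3 encodes the γ3 subunit of AMP-activated kinase, found in fast glycolytic fibers. Its signals were 4838, 4330.3 and 4275 on control arrays and 1913, 2226 and 2043 on DEX arrays, a log2 fold change of −1.12 (SE 0.11, limma adjusted p 0.0114), kept in all 9. Fam107a, an actin-bundling protein known as a stress and glucocorticoid responsive gene in brain, fell from 522, 420.0 and 605 to 129, 69.8 and 89.5 (−2.45, SE 0.23, adjusted p 0.0114), also kept in all 9, and its second probe set had −2.29. Oxct1, the enzyme that starts the use of ketone bodies, was among the brighter called genes. It fell from 24519, 26456 and 24038 to 13820.0, 13552 and 15491 (−0.81, adjusted p 0.0254), with −0.95 on a second probe set. Slc25a30, a mitochondrial carrier, fell on its called probe sets, with log2 fold changes of −1.36 and −1.22 (adjusted p 0.0341 and 0.0397), and Mtfp1, which promotes the division of mitochondria, had −0.65 (adjusted p 0.0459).

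Esrrg, a nuclear receptor for oxidative metabolism, had −0.98 on its called probe set (limma adjusted p 0.0324), but −0.36 and 0.01 on the others. Mylk4, a myosin light chain kinase family member, fell from 40958, 35795 and 39067 to 24403, 22255 and 21765 (−0.76, adjusted p 0.0409), and Snrk, a kinase related to AMPK, had −0.62 (adjusted p 0.049). Noct, a rhythmically expressed phosphatase of NADP(H), fell from 2924, 2761 and 3081 to 1101, 1078 and 1159 (−1.39, adjusted p 0.0256), and Metrn, or meteorin, had −0.78 (adjusted p 0.0397), with 0.04 on its other probe set. Of these genes other than Prkag3 and Fam107a, each call was lost in 7 to 9 of the 9 refits and with median-centred arrays. The highest adjusted p over the refits was 0.0893 and 0.12 for the 2 called probe sets of Oxct1, 0.112 and 0.132 for those of Slc25a30, 0.144 for Mtfp1, 0.107 for Esrrg, 0.135 for Mylk4, 0.149 for Snrk, 0.0893 for Noct and 0.133 for Metrn.

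Among the calls, 13 of the higher and 19 of the lower probe sets had a dim group that stayed below 50 on all 3 arrays, so that only a bound can be given against the floor. Of the higher ones, Glra3, a subunit of the glycine receptor, reached 704, 324 and 489 (at least 9.62-fold, adjusted p 0.0114, kept in all 9), and Orm1, an acute-phase orosomucoid, 211, 444 and 544 (at least 7.41-fold, adjusted p 0.0374, lost in 8 of the 9 refits, up to 0.124). Art1, a mono-ADP-ribosyltransferase of muscle membrane, reached 129, 88.2 and 113, at least 2.18-fold higher than 50, with adjusted p 0.0374. Its other probe sets had 0.15 and −0.15. Orm3, a second orosomucoid, reached 53.3, 82.0 and 177 (at least 1.84-fold, adjusted p 0.049). The orosomucoid genes are near-identical copies, so their probe sets may read each other's transcripts. Ddhd2, a lipase, reached 51.8, 94.8 and 80.4 (at least 1.47-fold, adjusted p 0.0103, kept in all 9). Of the lower ones, Gkn3 had control signals of 108, 149 and 115 and was at least 2.45-fold lower (adjusted p 0.0416), and Ctrb1, a digestive protease precursor best known from pancreas, had 84.1, 100.2 and 121 and was at least 2.02-fold lower (adjusted p 0.0341). Bcl2, the apoptosis inhibitor, was called on 1 dim probe set whose control signals were 26.4, 37.1 and 54.5, so no fold is given, and its remaining 3 probe sets had values between −0.61 and −0.29 and were not called. The calls of Art1, Gkn3 and Ctrb1 were lost in 8 of the 9 refits and that of Orm3 in all 9 (adjusted p up to 0.12, 0.133, 0.112 and 0.144). Gkn3 also lost its call with median centring.

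The other low-signal calls had small bounds. They were Krt42, Ttc21a, H1f7, Greb1, Zfp511 and A730020M07Rik among the higher genes, at least 1.13, 1.23, 1.11, 1.30, 1.25 and 1.29-fold, and Prl8a2, Rab9b, Slitrk5, Sox3, Zdhhc17, Pcgf2, Tmem200c and Fgf3 among the lower ones, at least 1.40, 1.32, 1.15, 1.62, 1.15, 1.08, 1.33 and 1.43-fold. Ralgapa1 was also called lower, but neither its control nor its DEX mean lay above 50, so no fold is given. The bright probe sets of Krt42, Sox3 and Zdhhc17 that were not called had log2 fold changes of −0.13, 0.36 and −0.15. Of these genes H1f7 and Tmem200c kept their calls in all 9 refits. Prl8a2 lost its call without control replicate 1 or 2 (adjusted p up to 0.0569), Slitrk5 without DEX replicate 3 or control replicate 3 (up to 0.0585), Krt42 in 5 refits (up to 0.0656), and the other 10 in 7 to 9, with adjusted p up to 0.146 for Sox3. Sox3, Fgf3 and Ralgapa1 also lost their calls with median centring.

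Cep85, a centrosome protein, had signals of 256, 271 and 336 and 2182, 2339.6 and 2634 on 1 probe set (log2 fold change 3.06, SE 0.13, limma adjusted p 2.73e-04, kept in all 9) but 0.28 on its other probe set. Myo5a, a myosin that carries vesicles, rose from 136, 105 and 73.9 to 878, 842 and 537 (2.85, adjusted p 0.0114, kept in all 9), with 3.28 and 0.47 on probe sets that were not called. Pnmt, the enzyme that makes adrenaline and a known glucocorticoid-dependent gene of the adrenal medulla, was called on both its probe sets, each kept in all 9. The first had 232, 209 and 267 on control and 1006, 1000.1 and 1059.6 on DEX arrays (2.12, adjusted p 0.00655). The second had 19.1, 56.3 and 22.2 on control and 2242, 1353 and 1149.6 on DEX arrays (adjusted p 0.00403), and since 1 of its 3 control arrays reached 50, no size is given.

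Ankrd6, Cuzd1, Plp2, Pdlim7, Phf7, Ttll7, Serinc3 and Rasl11a rose, with log2 fold changes from 0.63 (Rasl11a) to 1.86 (Ankrd6, a regulator of Wnt signaling). The lower ones were 5430401H09Rik, Nmb, Gm13306, Gemin8, Ablim3, Nhsl1, Hoxd8, Cemip2, Atp8a1 and Marcks, from −2.06 (5430401H09Rik, of which 1 of 3 DEX arrays reached 50) to −0.69 (Marcks). Nmb, or neuromedin B, a bombesin-like peptide, fell from 310.1, 434 and 556 to 148, 105 and 124 (−1.76, limma adjusted p 0.031). Leaving out 1 array ended each of these calls in 7 to 9 of the 9 refits, with a highest adjusted p between 0.0911 (Ankrd6) and 0.144 (Plp2). Median centring also ended the calls of Phf7, Ttll7, Serinc3, Rasl11a, Gemin8, Ablim3, Nhsl1, Hoxd8, Cemip2, Atp8a1 and Marcks. The lower probe sets without a single gene name include 1 that fell from 2314, 2505 and 2080.2 to 412, 248 and 285 (−2.90, adjusted p 0.00794, kept in all 9).

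The direct targets and cofactors of the glucocorticoid receptor did not move together. Of 28 genes of this list tested, 1 was called higher (Fkbp5) and 1 lower (Sgk1), against 0.278% and 0.321% of all 13691 genes with 1 probe set each. The median log2 fold change of the list was −0.16, beside −0.03 over all genes. Without adjustment (p under 0.05), 4 were higher and 7 lower, where 6.16% and 9.14% of all genes were. The DEX arrays lay wholly above the control arrays for 4 members and wholly below for 5, against 9.66% and 13.6% of all genes. Sgk1, a kinase that glucocorticoids and mineralocorticoids are known to induce, had signals of 31170.1, 27379 and 31336 on control arrays and 19474, 17379 and 17806 on DEX arrays, so all DEX arrays were below the controls (log2 fold change −0.72, SE 0.10, limma adjusted p 0.0416). The call of Sgk1 was lost in each of the 9 refits without 1 array (adjusted p up to 0.139), with median centring and with quantile normalization. Tsc22d3, the leucine zipper protein GILZ, had 11578, 12637 and 12512 on control and 8532, 6021 and 6722 on DEX arrays (−0.80, adjusted p 0.0685, not called). Per1, a clock gene and receptor target, had 1277, 988 and 1497 on control and 569.8, 529 and 358 on DEX arrays (−1.38, adjusted p 0.0609), and Cebpb, a transcription factor that the hormone is known to induce in liver and muscle, had −0.69 (adjusted p 0.0585).

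The DEX arrays were uneven for some targets. Arrdc2, an arrestin family protein, had 1709, 1832 and 2264 on the control arrays and 716, 80.4 and 154 on DEX replicates 1, 2 and 3, Cebpd, a related transcription factor, 2123, 4447 and 2668 on control and 2473, 682 and 718 on DEX arrays, and Glul, or glutamine synthetase, 7185, 8690.3 and 8021 on control and 8062, 4563 and 4136 on DEX arrays. In each, DEX replicate 1 was the highest of its group, and for Cebpd and Glul it lay within the control range. None was called (adjusted p 0.11, 0.3 and 0.339). Pck1, an enzyme of gluconeogenesis and glycerol formation, had 18.7, 26.4 and 63.4 on control and 81.3, 163 and 119.6 on DEX arrays (1.89, adjusted p 0.134, with 1 control array above 50), and Angptl4, an inhibitor of lipoprotein lipase, 0.99 (adjusted p 0.319). The receptor itself, Nr3c1, had 3094, 3619 and 3536 on control and 3237, 3231 and 3296 on DEX arrays (−0.07, SE 0.10). Klf15, Pdk4 and Foxo1, metabolic targets in fasting muscle, had −0.13 (SE 0.27), −0.19 (SE 0.19) and −0.24 (SE 0.22).

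Of 19 circadian clock genes none was called, with 4 higher and 6 lower at a nominal p under 0.05, against 6.16% and 9.14% of all genes. Their median of −0.01 became 0.10 with median-centred arrays. Bhlhe40, a repressor of the clock activators, had 3722, 3091 and 2749.8 on control and 7307, 8794 and 6028 on DEX arrays (1.20, SE 0.19, adjusted p 0.0505), just outside the threshold. The repressors Per2 and Per3 and the output factors Dbp and Hlf had −1.35 (SE 0.35), −0.71 (SE 0.19), −0.90 (SE 0.36) and −0.61 (SE 0.15), whereas the activators Arntl and Clock had 0.50 (SE 0.21) and 0.41 (SE 0.12). The values thus lay on either side of 0.

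**Figure D3:**
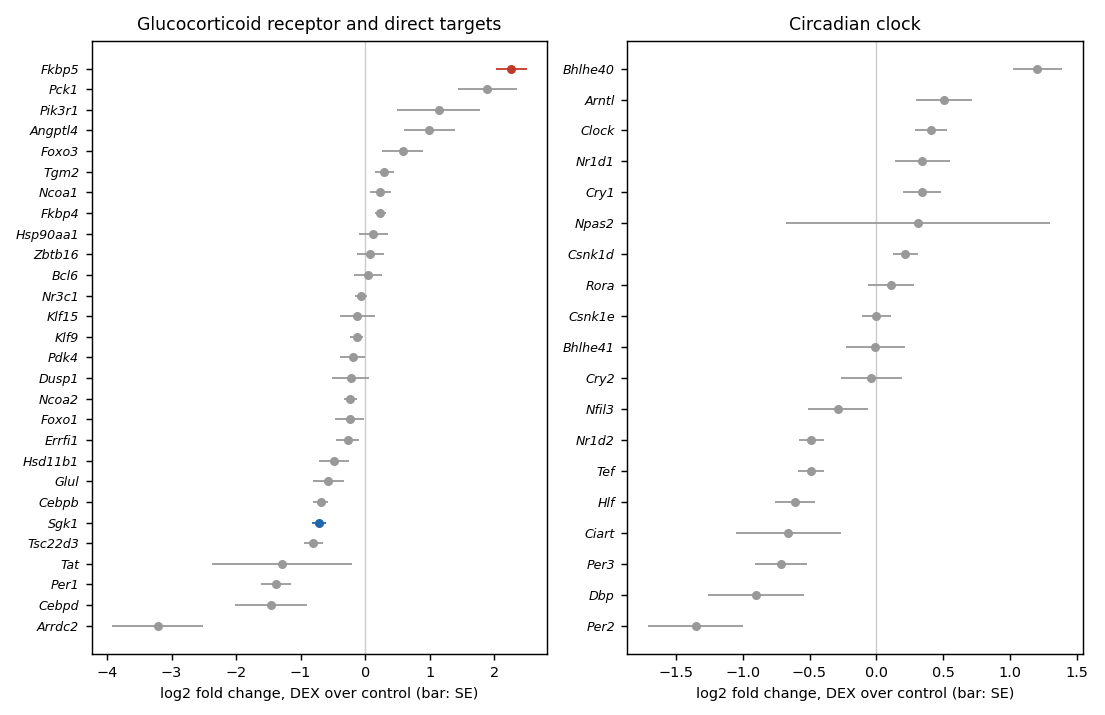
Log2 fold change (DEX over control) with its standard error for the 28 genes of the receptor and target list (left) and 19 clock genes (right), in order of size, with the called gene Fkbp5 in red and the called gene Sgk1 in blue. Fkbp5 stands at 2.26 and Sgk1 at −0.72, and the other genes spread on both sides of 0, Arrdc2 lowest at −3.21.

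Lists of genes for protein breakdown and growth held few calls. None of 17 muscle ubiquitin ligases, 33 proteasome genes and 30 autophagy and lysosome genes was called by the probe set used. Their medians were 0.08, 0.02 and 0.04, and 5, 4 and 2 members were higher, against 0, 1 and 1 lower, at a nominal p under 0.05. Over all genes 6.16% were nominally higher and 9.14% lower. Trim63, or MuRF1, had 14359, 15438 and 14224 on control and 20654, 19049.5 and 19083 on DEX arrays (0.42, SE 0.12, adjusted p 0.183), so the arrays did not overlap but the adjusted p missed the threshold. Mul1, a mitochondrial ubiquitin ligase, had 0.48 (SE 0.13), and Psmd8, a subunit of the proteasome cap, 0.39 (SE 0.11). Lamp2, the lysosome membrane protein, was called on a probe set other than the brightest (1393, 1415 and 1359 on control and 2322, 2223 and 2003 on DEX arrays, 0.65, adjusted p 0.0416), a call that all 9 refits and median centring ended (up to 0.139).

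None was called among 30 genes of insulin, IGF and mTOR signaling, 28 of myostatin, activin and BMP signaling, 25 of translation and ribosome biogenesis, and 30 cytosolic ribosomal proteins. The median of the myostatin list was 0.07. Those of the insulin and translation lists were near 0 and rose to 0.10 with median-centred arrays, which also turned that of the ribosomal proteins from −0.07 to 0.03. Igfbp5, an IGF-binding protein, had 18267, 12073 and 12489 on control and 4920.1, 6722 and 7554 on DEX arrays (−1.15, adjusted p 0.111), and Fstl1, a secreted follistatin-like protein, −0.95 (adjusted p 0.0895). Among 27 genes of the ATF4 response the median was −0.02, or 0.09 with median-centred arrays, and no member was called. Atf3, a stress-induced factor of that pathway, had 145, 117 and 160.2 on control and 523, 1108 and 300.1 on DEX arrays (2.00, adjusted p 0.136), with a wide spread among the DEX arrays.

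No contractile gene was called. Of 33 sarcomere and Z-disc genes, 5 were higher and 16 lower at a nominal p under 0.05, against 6.16% and 9.14% of all genes. Their median was −0.30, but 0.04 with quantile normalization. All 12 skeletal muscle identity markers were below 0 by value, with a median of −0.44 that quantile normalization brought to −0.03. Acta1, skeletal actin, had 77800.0, 53328 and 67023 on control and 41051, 52005 and 47962 on DEX arrays (−0.48, adjusted p 0.246), and Myh4, the myosin of the fastest fibers, 80063, 55009 and 68627 on control and 42367, 55211 and 50902 on DEX arrays (−0.45, adjusted p 0.276). These probe sets lie at the top of the range of the arrays. Of the 1369 brightest genes 39.0% had a log2 fold change above 0, against 45.6% of all genes. By contrast, Xirp1, a protein of damaged or remodelling attachment sites, had 942, 792 and 806 on control and 1939, 3242 and 1994 on DEX arrays (1.46, SE 0.23, adjusted p 0.0524), and Myoz2 and Csrp3, Z-disc proteins of slow fiber and stretch responses, had 0.92 (adjusted p 0.139) and 0.94 (adjusted p 0.29). Of 9 slow fiber genes 2 were higher and 1 lower at a nominal p under 0.05, against the same shares of all genes, with a median of 0.39. Their summed signal did not rise with the median. It was 6588 to 11148 on control arrays and 6435 to 9027 on DEX arrays, and so overlapped. Myh7, slow myosin, had 82.8, 22.9 and 75.9 on control and 161, 488 and 186 on DEX arrays (2.22, adjusted p 0.209).

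No call was made among 25 genes of excitation-contraction coupling (median −0.08, turning to 0.02 with median centring), 14 of the neuromuscular junction (0.06), 14 of the dystrophin complex (0.04, by the probe sets used, with Dtna called on 2 others) and 18 of satellite cells and myogenic regulators (−0.02, turning to 0.08). Sln, or sarcolipin, which uncouples the calcium pump, had 210.2, 177 and 224 on control and 474, 344 and 315 on DEX arrays (0.87, adjusted p 0.0979), and Pvalb, the calcium buffer of fast fibers, 81598, 52851 and 68593 on control and 41180.3, 51273 and 47399 on DEX arrays (−0.52, adjusted p 0.232). Myh8, the myosin of newborn muscle, had 81.4, 78.3 and 72.5 on control and 189, 191 and 217 on DEX arrays (1.36, adjusted p 0.0711). Chrna1, a subunit of the acetylcholine receptor that denervation is known to raise, had 0.61 (SE 0.16, adjusted p 0.153).

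In metabolism, 27 genes of glycolysis and glycogen had a median of −0.25, 31 of fatty acid uptake and oxidation 0.02, 29 of lipid synthesis 0.10, and 27 of mitochondrial biogenesis and matrix enzymes −0.21. None was called by the probe set used, and at a nominal p under 0.05 the counts higher and lower were 3 and 7, 3 and 5, 4 and 1, and 0 and 12. Over all genes 6.16% were nominally higher and 9.14% lower. Pfkfb3, which drives glycolysis through fructose 2,6-bisphosphate, had 2339, 1899 and 2174 on control and 3364, 5712 and 4443 on DEX arrays (1.05, adjusted p 0.169), whereas Pgam2 and Eno3, enzymes of lower glycolysis, had −0.53 (adjusted p 0.0938) and −0.50 (adjusted p 0.139). Lpl, which frees fatty acids from lipoproteins at the capillary wall, had 38566, 32992 and 34747 on control and 22451, 24169 and 23990.4 on DEX arrays (−0.59, adjusted p 0.0685), and its carrier Gpihbp1 is among the calls above. Acaca and Srebf1, of fatty acid synthesis, had 0.60 (adjusted p 0.117) and 0.56 (adjusted p 0.167). Among the mitochondrial genes Sod2 had −0.45 (adjusted p 0.088) and Dlat, a subunit of pyruvate dehydrogenase, −0.45 (adjusted p 0.112). Of 25 genes of amino acid transport and breakdown (median −0.05, turning to 0.05 with median centring) and 9 of polyamine metabolism (−0.07, turning to 0.03), none was called. Slc7a8, an amino acid transporter, had −1.27 (adjusted p 0.1), and Smox, spermine oxidase, −0.76 (adjusted p 0.175).

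Stress and early response lists also held no call by the probe set used, with Bcl2 of the apoptosis list called on another. Of 21 immediate early transcription factors, 5 were higher and 1 lower at a nominal p under 0.05, against 6.16% and 9.14% of all genes. Their median was 0.49. Klf10 had 623, 606 and 794 on control and 2453, 2128 and 1148 on DEX arrays (1.44, adjusted p 0.0979), Nr4a2 2.17 (adjusted p 0.164), and Zfp36, which destabilizes cytokine mRNAs, 827, 829 and 1083 on control and 443, 277 and 212 on DEX arrays (−1.61, adjusted p 0.0693). The 26 heat shock genes had a median of −0.03 and the 28 antioxidant genes −0.01, both turning positive with median centring. Hspa1a, an inducible heat shock protein, had 1.46 (adjusted p 0.195), and Gpx3, a secreted glutathione peroxidase, 3279, 2422 and 3212 on control and 9175, 4999.7 and 6305 on DEX arrays (1.17, adjusted p 0.0979). Of 28 cell cycle genes 1 was higher and 5 lower at a nominal p under 0.05 (median −0.14), against the same shares of all genes. Gadd45g, a growth arrest gene, had 4511, 3786 and 3523 on control and 1409, 698 and 466 on DEX arrays (−2.35, SE 0.36, adjusted p 0.0515), just outside the threshold. The 21 apoptosis regulators had a median of −0.08, or 0.02 with median centring, and Bbc3 and Bcl2l1, which promote and block cell death, had 0.69 (adjusted p 0.0941) and −0.76 (adjusted p 0.175).

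The acute-phase list held 1 call, and the called genes Orm3 and Lrg1, described above, were not members of it. Of 15 acute-phase genes tested (7 more stayed below the floor), 1 was called higher (Orm1) and 4 were higher, with none lower, at a nominal p under 0.05, beside 0.278%, 6.16% and 9.14% of all genes. The list as a whole had a median of 0.05, beside −0.03 over all genes, with 9 members above and 6 below 0 by value. Hp, or haptoglobin, had 20.0, 109 and 85.5 on control and 714, 486 and 399 on DEX arrays (3.18, adjusted p 0.0808). S100a8 and S100a9, which neutrophils carry in large amounts, had 64.5, 57.2 and 105 on control and 176, 239.6 and 345 on DEX arrays (1.74, adjusted p 0.112) and 24.3, 32.4 and 45.3 on control and 111, 149 and 252 on DEX arrays (at least 3.21-fold higher, adjusted p 0.0946). The list of 5 neutrophil markers tested, which holds the same S100a8 and S100a9, had a summed signal of 336.3 to 513 on control arrays and 461 to 962 on DEX arrays, and 6 more markers stayed below the floor. Of the 5 markers, 2 were higher (S100a8 and S100a9) and 1 lower at a nominal p under 0.05, against 6.16% and 9.14% of all genes. By value 3 lay above 0 and 2 below, with a median of 0.11, so the markers did not move together. The part of neutrophils in the acute-phase values was not tested. Of 13 genes for catecholamine synthesis, breakdown and receptors, Pnmt alone was called higher, beside 0.278% of all genes. Th, the enzyme that starts catecholamine synthesis, had 16.7, 4.46 and 38.1 on control and 34.7, 58.8 and 49.5 on DEX arrays, near or below the floor.

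Most inflammatory and immune lists had medians below 0, and that of the NF-κB pathway changed sign with median centring. Of 11 genes of MHC class II presentation, 1 was called lower (H2-Aa), 6 were lower and none higher at a nominal p under 0.05 (over all genes 0.321% called lower, 9.14% nominally lower and 6.16% nominally higher), and the median was −0.84. Cd74, the invariant chain, had 420.2, 705 and 644 on control and 125, 322 and 269 on DEX arrays (−1.38, adjusted p 0.169), and Lgmn, a lysosomal protease of antigen processing, 369.6, 502 and 404 on control and 194, 233 and 232 on DEX arrays (−0.95, SE 0.16, adjusted p 0.0636). None was called of 33 interferon-induced genes (median −0.22, 29 below 0 by value), 15 complement genes (−0.54), 18 chemokines and receptors (−0.25) and 17 genes of the NF-κB pathway (−0.01, or 0.10 with median centring). Over all genes 45.6% lay above 0 by value. Iigp1, an interferon-induced GTPase, had 436, 938 and 826 on control and 324, 186 and 291 on DEX arrays (−1.42, adjusted p 0.133), and Cxcl9, a chemokine for T cells, −1.85 (adjusted p 0.212). Of the cell types that carry these genes, 18 macrophage markers had a median of −0.19, with a summed signal of 3199 to 5146 on control arrays and 3894 to 6135 on DEX arrays, and 6 lymphocyte markers tested (9 more below the floor) −0.38, with 594 to 1103 and 876 to 1380.1. Neither list held a call, and the summed signals of both overlapped between the groups. Their part in the immune values was not tested.

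Several markers of connective tissue cells were lower, beside the matrix genes above. Of 8 tendon markers 2 were called lower (Kera and Tnmd) and 4 were lower at a nominal p under 0.05, beside 0.321% and 9.14% of all genes, the median was −0.73, and the summed signal was 6940.3 to 8859 on control arrays and 3644 to 5040.2 on DEX arrays, with no overlap. Thbs4, a thrombospondin of tendon and muscle ends, had 4431, 4746 and 5323 on control and 2579, 3080.0 and 3677 on DEX arrays (−0.65, adjusted p 0.133). Of 14 fibroblast markers 1 was called lower (Pcolce) and 8 were lower, with 1 higher, at a nominal p under 0.05 (median −0.56), against the same shares of all genes and 6.16% nominally higher, and the summed signal was 42051 to 59665 and 33517 to 43872. Lum, or lumican, had 1237, 1816 and 1841 on control and 456, 715 and 772 on DEX arrays (−1.35, adjusted p 0.0772), Serpinf1 2052, 3057 and 2901 on control and 955, 1257 and 1207 on DEX arrays (−1.22, SE 0.19, adjusted p 0.0524), and Dcn, or decorin, −0.50 (adjusted p 0.222). In 39 matrix proteins other than collagens, Thbs1 was called higher and no gene lower, with 33 below 0 by value and a median of −0.35. Over all genes 0.278% were called higher and 0.321% lower, and 45.6% lay above 0 by value. Postn, or periostin, had −1.74 (adjusted p 0.173), and Sparcl1 −0.87 (adjusted p 0.103). Of 20 matrix proteases and inhibitors (median −0.28) none was called by the probe set used, and Timp4 had 4820.2, 4024 and 4632 on control and 2314, 1028 and 1072 on DEX arrays (−1.71, adjusted p 0.0688) and Adamts5 −1.08 (adjusted p 0.0636). The part of tendon and fibroblast cells in the lower matrix genes was not tested.

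Among 28 endothelial and angiogenic genes, 1 was called higher (Cldn5) and 2 lower (Aplnr and Aqp1), with 4 higher and 9 lower at a nominal p under 0.05 (over all genes 0.278% and 0.321% called, and 6.16% and 9.14% nominally different, higher and lower), a median of −0.15 and a summed signal of 53190.1 to 56679 on control arrays and 41356 to 50861 on DEX arrays. Vwf, or von Willebrand factor, had 556, 442 and 596 on control and 232, 303 and 276 on DEX arrays (−0.97, adjusted p 0.0776), Flt1, a VEGF receptor, −0.81 (adjusted p 0.176), but Kdr, the other main VEGF receptor, 539, 588 and 532 on control and 793, 806 and 698 on DEX arrays (0.47, adjusted p 0.168) and Egfl7 0.57 (adjusted p 0.141). Markers of the same cells thus lay in both directions. No gene was called among 14 smooth muscle and pericyte markers (median −0.07, or 0.03 with median centring), 10 Schwann cell and nerve markers (−0.06, or 0.05) and 2 red blood cell markers tested (−0.12, or 0.03 with an offset of 50). The 14 adipocyte markers also held no call. Their median was 0.33 while their summed signal, which Car3 and Fabp4 dominate, was 91725 to 109721 on control arrays and 64739 to 82338 on DEX arrays. Retn, or resistin, had 127, 142 and 178 on control and 384, 278 and 356 on DEX arrays (1.19, adjusted p 0.0699), and Car3, a carbonic anhydrase of fat and slow fibers, −0.55 (adjusted p 0.178).

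**Figure D4:**
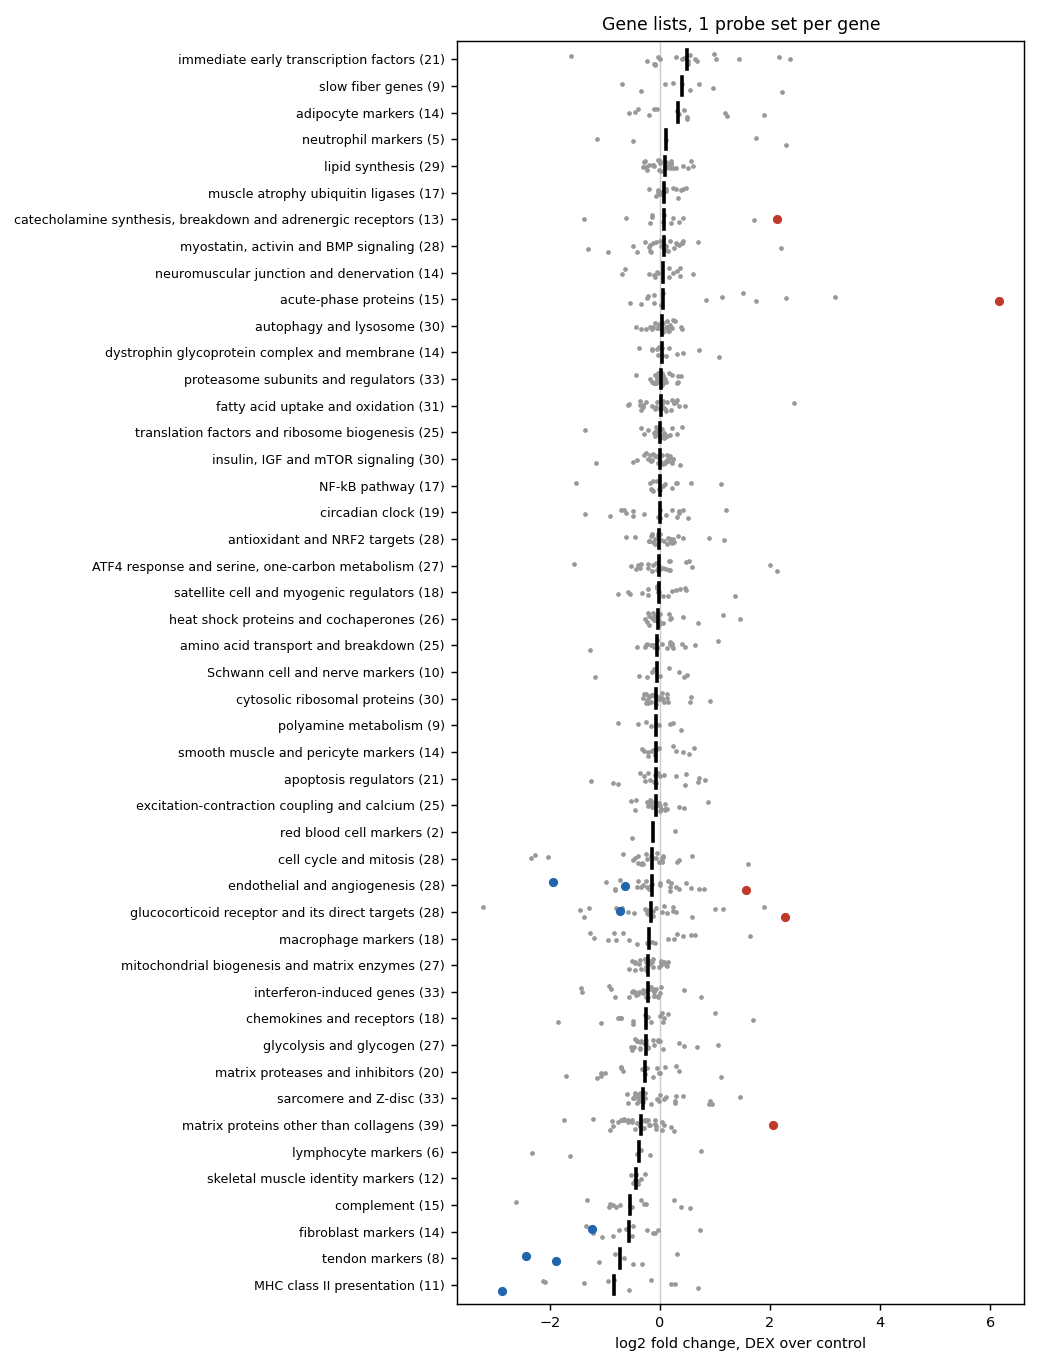
Log2 fold change (DEX over control) of each gene of 47 lists, by 1 probe set per gene, with the number of genes tested in parentheses, called genes as larger red (higher) or blue (lower) points and a black bar at each list's median. The medians lie between −0.84 (MHC class II presentation) and 0.49 (immediate early transcription factors), and 39 of the 47 lists hold no called gene.

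Over the 47 lists, 943 different genes were tested, of which 5 were called higher and 7 lower by the probe set used, and 7 and 10 by any of their probe sets. Together these are 12 genes (1.27%), beside 0.599% of all genes, and the lists were chosen with earlier results of these data known. Called genes that are members of no list include Lrg1, Cdkal1, Plin5, Tecr and Ptprf, which rose, and Fam107a, Prkag3 and Oxct1, which fell.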

How the data were processed

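RNA of the tibialis anterior was hybridised to Affymetrix GeneChip arrays, 1 per mouse, and groups were taken from the sample labels. The authors' deposited values are linear intensities, 1 for each probe set of an array, with each array's mean (2% trimmed at each end) at 500. Although RMA is named in the methods, its output would be log2 values of equal distribution, so these intensities are a different summary. Its program is not named in what was read here.

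The log2 of each intensity was taken without an offset. Of 45037 probe sets, 34945 had 1 gene symbol in the array's annotation, 932 several and 9160 none, and 34754 were found by Entrez number in the RefSeq table of GRCm38.p6. Probe sets were tested where the mean log2 signal of at least 1 of the 3 groups reached log2 of 50. The model (limma 3.58.1, R 4.3.3, lmFit and eBayes) had 1 mean for each of the 3 groups over all 9 arrays, with Benjamini-Hochberg adjustment over 29269 probe sets, and the thresholds were those of the paper (0.05 and 0.6). The script was tested on simulated data. Rank Product, the test of the paper, was an alternative, with 100 permutations. Each gene of a list was represented by its probe set of highest mean log2 intensity. Promoters are RefSeq windows matched by gene symbol. Tables were made with Python 3.11.15, numpy 2.4.6, scipy 1.17.1 and pandas 2.3.3, and figures with matplotlib 3.10.9.

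The comparison, the lists and the rule for named genes were chosen with earlier results of these data known. The rule takes, among called genes outside collagens, oxidative phosphorylation and the tables of the paper, the 15 that rose most and the 15 that fell most, the 3 with the lowest adjusted p in each direction, and up to 5 called or 3 other members of each list. Called genes named beyond it, and list members given beyond it, were chosen after their values were seen. Arrays are from separate mice. Where 1 group lay below 50 on all 3 arrays, the fold is the brighter group's mean over 50, as at least. No batch is given in the labels. Alternatives were median centring, quantile normalization, an offset of 50, a floor of 100 or none, a mean-variance trend, the 6 compared arrays alone, a replicate block and each array left out in turn.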

Additional observations from a re-analysis of the deposited data

How the results depend on the processing

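The counts of called probe sets, 68 higher and 79 lower, depended on the processing, while no called probe set changed sign in the limma refits. A floor of 100 gave 167 higher and 174 lower, an offset of 50 before log2 129 and 154, and a mean-variance trend in limma 278 and 285. No filter on low signal gave 29 and 24 and the 6 compared arrays alone 11 and 7. Median centring gave 65 and 45, and quantile normalization 75 and 69. Rank Product called 34 higher and 48 lower, with 21 calls shared. The paper names RMA as the normalization before that test, whereas here the deposited intensities were used, so these counts do not repeat its own. Leaving out 1 array gave 31 to 45 higher and 14 to 51 lower. With the replicate number as a block limma called 27 higher and 14 lower, but same-numbered control and DEX arrays did not deviate together (r = −0.02, −0.01 and 0.02), so the numbers were not taken as pairs. The causes of these differences were not tested. Over single genes and list medians, the alternatives gave 3062 values on the same side of the threshold, 1175 weaker, 56 stronger and 5 list medians moved by more than the spread. Precision fell with brightness, from a median SE of 0.10 in the 1369 brightest genes to 0.78 in the dimmest.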
